A study of Mus musculus with 12 samples.

Results

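Kinesins are motor proteins that use ATP to move along microtubules or to take microtubules apart. One set of them builds the spindle, moves chromosomes and divides the cell, and another carries vesicles, organelles and RNA through the cytoplasm. A growing oocyte is arrested in prophase of the first meiotic division and has no spindle, but it stores the mRNAs that its later meiotic divisions and the first embryonic divisions will use. The kinesin genes were chosen by symbol, as Kif with a number and at most one of the letters a to c, or Kifc with a number, which gave 43 of the 55450 genes of the count table. By function they were sorted into 15 spindle kinesins, 17 transport kinesins, 6 cilium kinesins, 4 others and 1 pseudogene, Kifc5c-ps. Of the 43 genes, 41 passed the filter on low counts and were tested, and Kif2b and Kif12, with 26 and 21 counts in all, were not.

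Oocytes lacking TBPL2, the TBP paralogue of the oocyte, were compared with wild-type (WT) oocytes at postnatal day 7 (P7, primary follicles) and day 14 (P14, secondary follicles). Either genotype at either age was represented by 3 libraries (4 groups), each from a pool of 130 to 400 oocytes that were picked by size from enzyme-digested ovaries. The animals behind each pool and their strain are not given in the sources used here, so that p-values measure the spread between these pools. All libraries were made from polyadenylated RNA by amplification, without a mark of strand and without molecular identifiers, and held 31467610 to 48030724 counts, of which kinesins took 0.279 to 0.365%.

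Tbpl2 itself matched the labels: its normalised counts, which are the deposited counts divided by the authors' DESeq2 size factor of the library, ran from 1900 to 3317 in the 6 WT libraries and from 75.2 to 117 in the 6 Tbpl2-/- libraries. All 8 oocyte markers were detected in every group, and their summed normalised counts ran from 1061831 to 1358957 in WT and from 303993 to 360233 in Tbpl2-/-. The 16 granulosa markers summed to 2317 to 2636 in P14 WT and 2169 to 2568 in P14 Tbpl2-/-, with 1 of 15 tested called lower and 2 higher, and at P7 to 2473 to 3337 (WT) and 1166 to 1541 (Tbpl2-/-), with 11 of 15 called lower. No granulosa marker was at 0 in a whole group. The 9 theca and stroma markers summed at P7 to 76.7 to 129 (WT) and 162 to 200 (Tbpl2-/-), without overlap. At P14 they summed to 122 to 161 (WT) and 110 to 189 (Tbpl2-/-). Of the 4 tested, 2 were called higher at P7, and 1 lower and 1 higher at P14. The 8 blood, immune and endothelial markers summed at P7 to 749 to 1289 (WT) and 202 to 249 (Tbpl2-/-) and at P14 to 2187 to 2918 (WT) and 527 to 691 (Tbpl2-/-), mostly Pecam1, with 4 of the 8 at 0 throughout P14 WT. Whether these marker counts came from other cells was not tested, and neither was the part of such cells in the kinesin results. The libraries made from under 4 ng of RNA were 3 (P14 WT replicate 2, P14 Tbpl2-/- replicate 1 and P7 Tbpl2-/- replicate 1), and 10 of the 43 members, among them Kif13b, Kif24, Kif26a, Kif3b and Kifc1, were lowest in that library in all 3 groups. Results that turn on these libraries are given with and without them. In bulk RNA of this kind, fewer cells and less RNA per cell cannot be told apart.

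The promoters of the kinesins are shown first. A short run of letters there was common among the spindle kinesins and rare among the transport kinesins whose promoters were matched. Promoters from RefSeq (GRCm38.p6, 250 bases before to 50 after the first listed start) were matched for 33 of the 43 members, 14 of the spindle and 11 of the transport kinesins among them. The letters TTTGAA, the core of the cell cycle genes homology region through which the DREAM complex represses cell cycle genes in dividing cells, were searched on both strands. They stood in 11 of 14 spindle promoters (78.6%), in 0 of 11 transport promoters and in 18.1% of 27025 promoters of the genome. With every listed start counted, 1 of 11 transport kinesins, Kif1a, had the letters at its second start. From 60 bases before to 30 after the first listed start, 8 of 14 spindle promoters (57.1%), no transport promoter and 4.59% of all promoters held them. The match of Kif1a also lay within this span of its second start. A match is a description of the letters and not a bound site. The following windows show 4 spindle kinesins that fell at P14 (Kif23, Kif11, Kif20b and Kif4), the spindle kinesin Kif18b that did not, and the transport kinesins Kif3a and Kif16b without a match. Each is given 5′ to 3′ on the gene's strand from 60 bases before to 30 after the start, with TTTGAA or its reverse complement TTCAAA in capitals.
Kif23 (chr9:61946770-61946859, minus strand): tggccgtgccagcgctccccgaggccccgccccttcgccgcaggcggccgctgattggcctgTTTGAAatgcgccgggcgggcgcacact
Kif11 (chr19:37376322-37376411, plus strand): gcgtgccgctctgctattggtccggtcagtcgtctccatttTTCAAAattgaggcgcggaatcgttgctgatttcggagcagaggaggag
Kif20b (chr19:34922298-34922387, plus strand): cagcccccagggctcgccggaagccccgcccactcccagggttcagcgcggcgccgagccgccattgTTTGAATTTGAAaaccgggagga
Kif4 (chrX:100626005-100626094, plus strand): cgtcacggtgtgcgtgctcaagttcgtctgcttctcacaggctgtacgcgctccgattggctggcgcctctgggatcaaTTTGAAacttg
Kif18b (chr11:102925095-102925184, minus strand): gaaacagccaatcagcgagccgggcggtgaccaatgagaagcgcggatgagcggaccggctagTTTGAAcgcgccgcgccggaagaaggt
Kif3a (chr11:53567309-53567398, plus strand): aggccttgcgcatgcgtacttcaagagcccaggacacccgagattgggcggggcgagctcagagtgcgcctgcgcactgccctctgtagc
Kif16b (chr2:142901435-142901524, minus strand): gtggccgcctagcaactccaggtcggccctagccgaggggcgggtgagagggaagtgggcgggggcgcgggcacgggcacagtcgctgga

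Spindle kinesins with these letters were found both among those that fell and among those that did not. Of the 11 tested spindle kinesins with TTTGAA, 8 were lower, 1 was higher and 2 were not called at P14, and of the 2 tested without it, Kif18a was lower and Kif2a was not called. TATAAA, the element that TBP binds, stood in 4 of 33 kinesin promoters (12.1%) and in 14.2% of all promoters, and in none of the 33 between 35 and 20 bases before the start, where 2.35% of all promoters held it. TATATA, which can overlap TATAAA, was in 0 of 33 kinesin promoters and 5.94% of all. The listed starts are those of RefSeq and not those used in these oocytes. For some genes, Kif14, Kif2c and Kif17 among them, the listed start lies inside the annotated gene. Kifc1 and Kifc5b, which are close copies, each count among the 11.

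At P14 the abundant spindle kinesins were lower in Tbpl2-/- oocytes and most transport kinesins were not called. Of 14 tested spindle kinesins 10 fell, 1 rose and 3 did not pass, with a median log2 fold change of −0.78. Of 17 transport kinesins 2 fell, 2 rose and 13 did not pass, with a median of 0.08. Over all 17715 genes tested, 27.8% were called lower and 29.9% higher, with a median of 0.07, so that 71.4% of the spindle kinesins and 11.8% of the transport kinesins were called lower against 27.8% of all genes. A call is an adjusted p of at most 0.05 in edgeR's quasi-likelihood test with Benjamini-Hochberg adjustment over all genes tested, and changes are Tbpl2-/- against WT on the log2 scale with their standard error (SE). Of all 41 kinesins, 16 fell and 5 rose, 9 and 3 of them by more than 2-fold (14.6% and 16.7% of all genes). Fold changes come from the edgeR fit and its own scale (TMM), and values per library from the deposited normalised counts. Both scales are relative to the other RNA of a library, so a rise need not mean more transcript per oocyte. For its upregulated genes the paper gives normalisation and mRNA stabilisation as possible sources, and favours the latter. Which of them applies to the kinesins was not tested. The P14 values of the genotypes did not overlap for 12 of 14 spindle and 5 of 17 transport kinesins, against 63.9% of all genes. With library size alone as the scale, which moved the median of all genes at P14 from 0.07 to 0.48, the split was 12 lower and 17 higher, with 8 lower and 4 higher among spindle and 2 lower and 10 higher among transport kinesins. Without the 3 libraries of under 4 ng RNA it was 15 lower and 9 higher, with 9 and 2 among spindle and 2 and 4 among transport kinesins. Leaving out P14 Tbpl2-/- replicate 1 alone gave 10 kinesins called higher, 5 of them transport kinesins, and leaving out P14 WT replicate 1 left 1 transport kinesin called higher.

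Kif23 (MKLP1), the motor of the centralspindlin complex that organises the central spindle for cytokinesis, showed the largest fall among spindle kinesins. Its normalised counts were 24039, 24047 and 22267 in P14 WT and 4948, 5996 and 6496 in P14 Tbpl2-/-, a log2 fold change of −1.99 (SE 0.13, adjusted p = 9.08e-09). At P7 they were 18954, 18140 and 14316 in WT and 4205, 5092 and 4570 in Tbpl2-/-, a change of −1.87 (SE 0.13, adjusted p = 1.48e-08). The genotypes were thus far apart at both stages, and the change at P14 did not differ detectably from that at P7 (difference −0.12, SE 0.18, adjusted p = 0.669). Kif20b (MPHOSPH1), a kinesin of the late stages of cytokinesis, also fell at both stages. It measured 5340, 6078 and 5481 in P14 WT and 2893, 3116 and 3431 in P14 Tbpl2-/- (−0.82, SE 0.11, adjusted p = 1.37e-05). At P7 its counts were 5291, 6072 and 5235 in WT and 2011, 2243 and 2352 in Tbpl2-/- (−1.31, SE 0.11, adjusted p = 1.00e-07). No Tbpl2-/- library reached the lowest WT library, and the fall was smaller at P14 than at P7 (difference 0.49, SE 0.16, adjusted p = 0.0293).

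**Figure D1:**
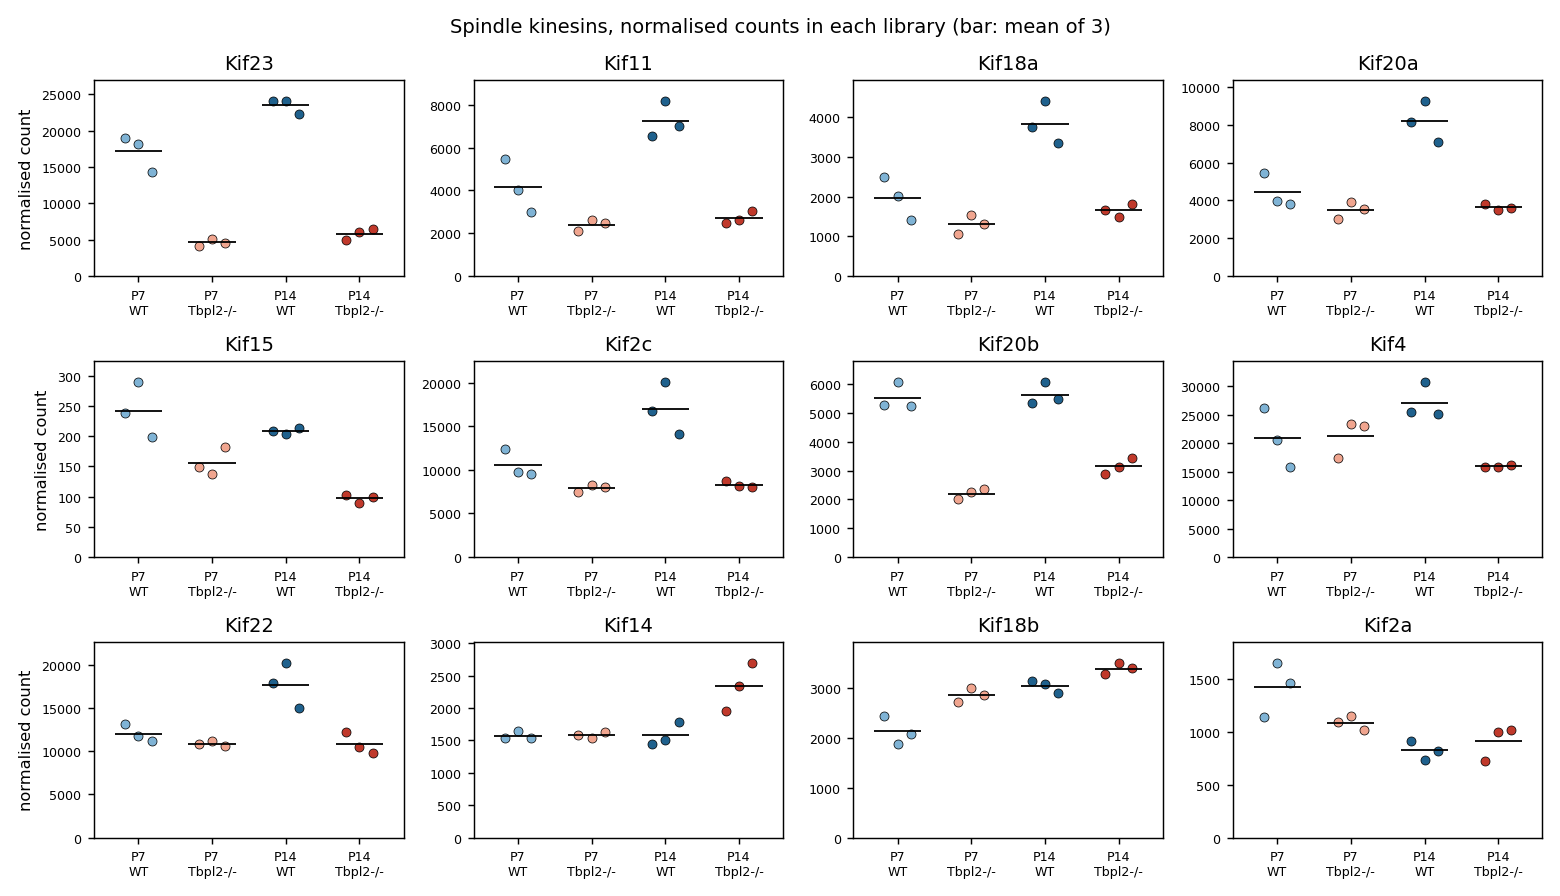
Normalised counts (y axis, from 0) of 12 spindle kinesins in each of the 12 libraries, by group (x axis), with a bar at the mean of 3 libraries. Kif23 and Kif20b were lower in Tbpl2-/- at both ages, while the P14 WT points of Kif20a, Kif22, Kif2c and Kif4 stood above all P14 Tbpl2-/- points.

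Kif11 (Eg5), the tetrameric kinesin-5 that pushes spindle poles apart, measured 6563, 8174 and 7020 in P14 WT and 2474, 2629 and 3024 in P14 Tbpl2-/- (−1.40, SE 0.18, adjusted p = 7.25e-06). At P7 it measured 5476, 4045 and 3003 in WT and 2119, 2633 and 2472 in Tbpl2-/- (−0.78, SE 0.18, adjusted p = 0.00138). The groups were apart at both stages, with P7 WT replicate 3 the WT library nearest to the mutant ones. Kif15, a kinesin-12 that can stand in for Kif11 in human cells, was a low gene with the same order. It measured 208, 204 and 214 in P14 WT and 103, 89.5 and 98.7 in P14 Tbpl2-/- (−1.08, SE 0.19, adjusted p = 1.40e-04). At P7 WT libraries had 238, 290 and 198 and Tbpl2-/- libraries 148, 137 and 182 (−0.62, SE 0.18, adjusted p = 0.00894), where the groups came close. The P7 fall of Kif15 did not pass with library size alone (−0.34, adjusted p = 0.132).

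The kinesin-8 and kinesin-13 families shorten microtubules or hold their length, and their members moved apart. Kif18a, the kinesin-8 that damps chromosome movements at metaphase, measured 3752, 4410 and 3349 in P14 WT and 1669, 1489 and 1809 in P14 Tbpl2-/- (−1.19, SE 0.19, adjusted p = 5.71e-05). At P7 its groups overlapped, with 2484, 2026 and 1417 in WT and 1064, 1551 and 1315 in Tbpl2-/- (−0.58, SE 0.19, adjusted p = 0.0146). That call was lost with library size alone (−0.29, adjusted p = 0.152) and without P7 WT replicate 1 (adjusted p = 0.0910). It was also lost without P7 Tbpl2-/- replicate 1 (0.0656) and without the 3 libraries of under 4 ng RNA (0.0587). Kif18b, the other kinesin-8 of the spindle, rose at P7 from 1882 to 2438 in WT to 2716 to 2996 in Tbpl2-/- (0.44, SE 0.11, adjusted p = 0.00304). At P14 it lay at 2889 to 3144 in WT and 3269 to 3506 in Tbpl2-/- and was not called (0.18, adjusted p = 0.178), but with library size alone it was (0.60, adjusted p = 1.04e-04). Kif2c (MCAK), the kinesin-13 that corrects chromosome attachments at kinetochores, fell at P14 from 16822, 20116 and 14120 in WT to 8728, 8102 and 8051 in Tbpl2-/- (−1.02, SE 0.13, adjusted p = 7.98e-06). Its P7 values were 12422, 9768 and 9575 in WT and 7502, 8245 and 8015 in Tbpl2-/- (−0.40, SE 0.13, adjusted p = 0.0148), a call that was lost without P7 WT replicate 1 (−0.27, adjusted p = 0.0789), without P7 Tbpl2-/- replicate 1 (0.0504) and with library size alone (0.368). Kif2a, the kinesin-13 of spindle poles and of neurons, was not called at either stage (P14 0.17, adjusted p = 0.387; P7 −0.37, adjusted p = 0.0626), except at P14 with library size alone (0.58, adjusted p = 0.00813). Kif2b, the third kinesin-13, had at most 7 counts in any library.

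The chromokinesins Kif22 (Kid) and Kif4, which bind chromosome arms, and the cytokinesis kinesin Kif20a were lower in the mutant at P14 but were not called at P7. Kif22 measured 17843, 20236 and 15000 in P14 WT and 12227, 10453 and 9838 in P14 Tbpl2-/- (−0.69, SE 0.12, adjusted p = 1.50e-04). At P7 it was at 13128, 11735 and 11130 in WT and 10792, 11186 and 10558 in Tbpl2-/- (−0.13, adjusted p = 0.374), with overlap. Kif4 measured 25423, 30794 and 25174 in P14 WT and 15730, 15740 and 16248 in P14 Tbpl2-/- (−0.75, SE 0.16, adjusted p = 9.13e-04), a call that was lost with library size alone (−0.33, adjusted p = 0.0556). At P7 the Kif4 groups overlapped, with 26206, 20638 and 15866 in WT and 17356, 23301 and 22989 in Tbpl2-/- (0.04, adjusted p = 0.847). Kif20a (MKLP2), which brings Aurora B to the central spindle in human cells, measured 8167, 9251 and 7108 in P14 WT and 3808, 3510 and 3610 in P14 Tbpl2-/- (−1.14, SE 0.14, adjusted p = 6.43e-06). In P7 WT Kif20a was at 5455, 3982 and 3823 and in P7 Tbpl2-/- at 3017, 3904 and 3541 (−0.32, adjusted p = 0.0635), a value that passed under the RLE factors (0.0487) and under the stricter filter (0.0167). Kif20a shares 29.3% of its exon bases with Cdc23, Kif4 15.1% with Pdzd11 and Kif2a 19.2% with Dimt1, and with the strand setting of the counting not given, reads there may be shared or lost.

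Kif14 was the only spindle kinesin called higher at P14 in the fit used here. This motor, which with citron kinase acts in cytokinesis in human cells, measured 1442, 1507 and 1792 in P14 WT and 1961, 2344 and 2701 in P14 Tbpl2-/- (0.58, SE 0.13, adjusted p = 0.00137), without overlap. At P7 it was level, at 1533, 1649 and 1539 in WT and 1592, 1539 and 1627 in Tbpl2-/- (0.03, adjusted p = 0.863). Kifc1 (HSET), the minus-end directed kinesin-14 that focuses spindle poles, was not called at P14, where it measured 824, 656 and 827 in WT and 699, 1300 and 1469 in Tbpl2-/- (0.61, SE 0.30, adjusted p = 0.0951). Without P14 Tbpl2-/- replicate 1, the library of 2.8 ng RNA, the change of Kifc1 was 0.90 (adjusted p = 0.00607). Without all 3 libraries of under 4 ng RNA it was 0.79 (adjusted p = 0.00162). Kifc1 was also called higher at P14 with library size alone (1.02, adjusted p = 0.00826) and with no filter (0.65, adjusted p = 0.00174). The same held without P7 Tbpl2-/- replicate 1 (0.64, adjusted p = 0.0250) or replicate 2 (0.64, adjusted p = 0.0414). Its P7 values were 1261, 1407 and 1163 in WT and 764, 1774 and 1286 in Tbpl2-/- (0.02, adjusted p = 0.968).

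Kifc1 has a close copy on the same chromosome, Kifc5b, and a pseudogene copy on chromosome 10, Kifc5c-ps. Kifc1 (chr17:33875659-33890661) and Kifc5b (chr17:26917091-26932583) were identical at 96.5% of 2333 aligned transcript positions, and 47.6% of the 50-base stretches of Kifc1 and 42.1% of those of Kifc5b occurred in another gene. Reads from such stretches cannot be given to either copy, so that the separate counts of both are uncertain. The stretch of exon 2 below, on the coding strand in GRCm38, shows where reads can tell them apart, with its 13 differing bases in capitals. The longest stretch without a difference was 268 bases.
Kifc1 (chr17:33886797-33886896, minus strand): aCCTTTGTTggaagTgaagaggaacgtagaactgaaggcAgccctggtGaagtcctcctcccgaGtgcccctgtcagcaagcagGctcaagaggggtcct
Kifc5b (chr17:26920799-26920898, plus strand): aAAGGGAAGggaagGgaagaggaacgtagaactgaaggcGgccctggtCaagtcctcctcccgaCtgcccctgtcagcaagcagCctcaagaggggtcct
Kifc5b was the lower-counted copy, at 63.1 to 79.9 in P14 WT and 33.5 to 47.6 in P14 Tbpl2-/- (−0.69, SE 0.26, adjusted p = 0.0323), and at 100.2 to 159 in P7 WT and 53.5 to 81.6 in P7 Tbpl2-/- (−0.89, SE 0.25, adjusted p = 0.00604). The P14 call was lost with library size alone (adjusted p = 0.368), without the 3 libraries of under 4 ng RNA (0.124) and in 6 of the 12 fits that left out 1 library, with an adjusted p of up to 0.139 without P14 Tbpl2-/- replicate 1. Kifc5c-ps measured 393, 228 and 320 in P14 WT and 132, 130 and 162 in P14 Tbpl2-/- (−1.13, SE 0.21, adjusted p = 2.49e-04). At P7 the pseudogene was at 290, 255 and 225 in WT and 79.8, 104 and 95.7 in Tbpl2-/- (−1.45, SE 0.22, adjusted p = 3.28e-05). Both copies were thus lower in the mutant at both stages, where Kifc1 was not called in the fit used here.

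**Figure D2:**
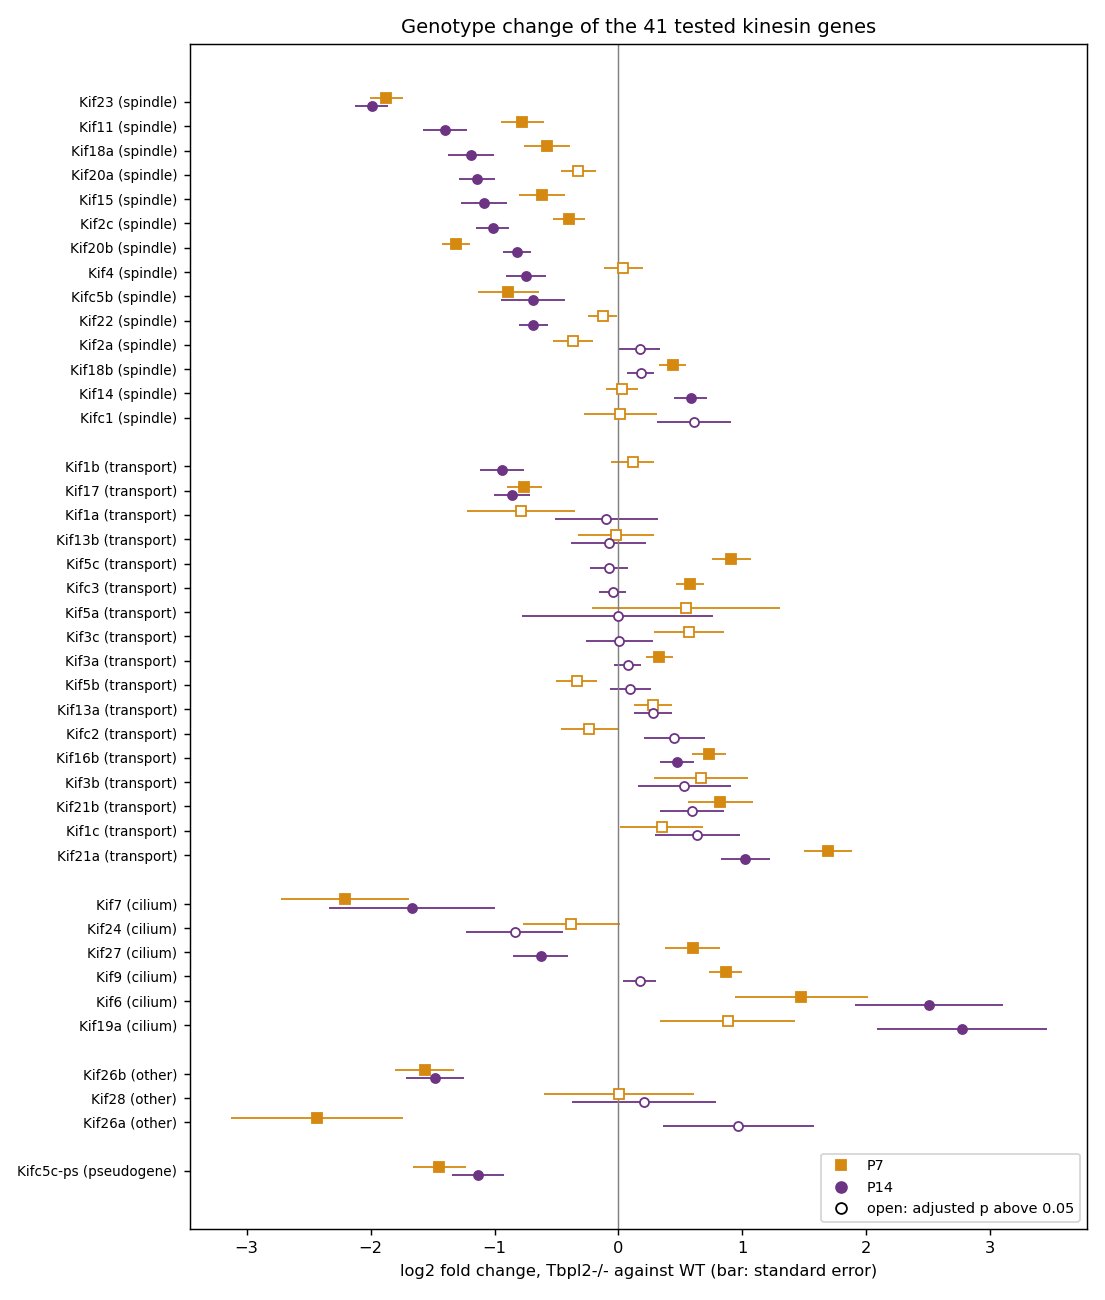
log2 fold change of Tbpl2-/- against WT (x axis) with its standard error for the 41 tested kinesin genes (y axis, grouped by function and ordered by the P14 value), with P7 as squares and P14 as circles and open symbols where the adjusted p was above 0.05. Of 14 spindle kinesins 10 were called lower at P14 and 7 at P7 (8 and 4 with library size alone), whereas 2 and 1 of 17 transport kinesins were called lower.

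Transport kinesins showed changes in both directions. Kif17, a homodimeric kinesin-2 known for carrying NMDA receptor vesicles in neurons, was by far the most counted of them and fell at both stages. It measured 15304, 17340 and 14611 in P14 WT and 10049, 9142 and 6492 in P14 Tbpl2-/- (−0.86, SE 0.14, adjusted p = 9.16e-05). At P7 it measured 17513, 18879 and 20871 in WT and 11967, 10057 and 11366 in Tbpl2-/- (−0.76, SE 0.14, adjusted p = 2.64e-04). The groups did not overlap at either stage, and the difference between the stages did not pass (−0.10, SE 0.20, adjusted p = 0.748). Kif1b, a kinesin-3 that carries synaptic vesicle precursors and mitochondria, fell at P14 only among the stages tested, from 1913, 2014 and 2480 in WT to 874, 1095 and 1323 in Tbpl2-/- (−0.94, SE 0.18, adjusted p = 2.80e-04). Its P7 values overlapped, at 1895, 1584 and 1287 in WT and 1545, 1646 and 1906 in Tbpl2-/- (0.12, adjusted p = 0.590). The difference between the stages itself passed (−1.05, SE 0.25, adjusted p = 0.00683).

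Kif21a and Kif16b were higher in the mutant at both stages. Kif21a, a kinesin-4 that slows microtubule growth, measured 115, 119 and 123 in P14 WT and 303, 224 and 193 in P14 Tbpl2-/- (1.03, SE 0.20, adjusted p = 3.97e-04). Its P7 values were 205, 236 and 294 in WT and 820, 892 and 638 in Tbpl2-/- (1.69, SE 0.19, adjusted p = 2.03e-06), the largest rise among the transport kinesins. Kif16b, which moves early endosomes through its lipid-binding tail, measured 3594, 3873 and 4832 in P14 WT and 5753, 5308 and 5779 in P14 Tbpl2-/- (0.47, SE 0.14, adjusted p = 0.00767), a call that was lost without P14 WT replicate 1 (0.38, adjusted p = 0.0514). In P7 WT Kif16b was at 4626, 3824 and 3218 and in P7 Tbpl2-/- at 6304, 6271 and 6535 (0.73, SE 0.14, adjusted p = 2.76e-04).

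At P7 transport kinesins were called higher in Tbpl2-/- about as often as all genes, and called lower less often. Of 17 tested, 6 rose, 1 fell and 10 did not pass at P7, with a median of 0.35 against 0.02 over all genes, and 35.3% of them were called higher against 30.5% of all genes. Of the 14 spindle kinesins 7 fell, 1 rose and 6 did not pass (median −0.38), with 28.9% of all genes called lower. With library size alone, which moved the median of all genes at P7 from 0.02 to 0.29, the counts were 4 lower and 1 higher for spindle and 1 lower and 9 higher for transport kinesins (2 lower and 10 higher at P14 on that scale). Over all 41 kinesins 12 fell and 10 rose at P7, 6 and 2 of them by more than 2-fold (17.1% and 15.5% of all genes). The groups did not overlap for 7 of 14 spindle and 8 of 17 transport kinesins at P7, against 63.5% of all genes. The split over all kinesins was 9 lower and 13 higher with library size alone, without the libraries of under 4 ng RNA it was 12 lower and 11 higher, and without P7 WT replicate 3 the number called higher was 6. The summed granulosa markers were also lower in P7 Tbpl2-/-, and their part in these P7 counts was not tested.

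Kif5c, a kinesin-1 heavy chain of neurons, measured 534, 427 and 394 in P7 WT and 712, 874 and 933 in P7 Tbpl2-/- (0.91, SE 0.16, adjusted p = 1.33e-04). At P14 it was at 1092, 1281 and 1107 in WT and 958, 1049 and 1242 in Tbpl2-/- (−0.08, adjusted p = 0.693). The P7 mutant thus lay between the P7 and the P14 WT values. Kifc3, a minus-end directed kinesin of membrane traffic and cell junctions, showed the same order, with 3651, 2757 and 3091 in P7 WT and 4979, 4823 and 4195 in P7 Tbpl2-/- (0.58, SE 0.11, adjusted p = 4.13e-04). Its P14 values were 5805, 6115 and 5479 in WT and 5624, 5479 and 5485 in Tbpl2-/- (−0.05, adjusted p = 0.740), and with library size alone this became a rise (0.37, adjusted p = 0.00511).

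Kif3a and Kif3b form the heterotrimeric kinesin-2 with the adaptor Kifap3. Kif3a rose at P7, from 6835, 7178 and 6000 in WT to 8407, 8539 and 7885 in Tbpl2-/- (0.33, SE 0.11, adjusted p = 0.0166), and the call was lost without P7 WT replicate 3 (0.0694), P7 Tbpl2-/- replicate 1 (0.0557) or replicate 2 (0.0705). At P14 it was at 5550, 6280 and 5128 in WT and 6490, 5498 and 5640 in Tbpl2-/- (0.08, adjusted p = 0.570). Kif3b was not called at either stage in the fit used here, with 582, 465 and 737 in P14 WT and 377, 971 and 1190 in P14 Tbpl2-/- (0.53, SE 0.37, adjusted p = 0.246). Its lowest library in both P14 groups was the one of under 4 ng RNA, and without the 3 such libraries it was higher in the mutant (0.76, SE 0.22, adjusted p = 0.0107). At P7 it measured 348, 473 and 289 in WT and 404, 625 and 713 in Tbpl2-/- (0.67, adjusted p = 0.150), and 0.87 without the 3 libraries (adjusted p = 0.00209). With library size alone Kif3b was called higher at P14 (0.94, adjusted p = 0.0454) and at P7 (0.94, adjusted p = 0.0486). The fit of the P7 libraries alone also called it higher (0.65, adjusted p = 0.0332). Kif3c, an alternative partner of Kif3a that shares 40.7% of its exon bases with an overlapping gene, was not called in either genotype comparison but was higher at P7 with library size alone (0.85, adjusted p = 0.0149).

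The ubiquitous kinesin-1 heavy chain Kif5b was not called with genotype. It measured 738, 1016 and 972 in P14 WT and 840, 994 and 1037 in P14 Tbpl2-/- (0.10, SE 0.17, adjusted p = 0.644), and 1294, 1820 and 1217 in P7 WT and 1122, 1075 and 1187 in P7 Tbpl2-/- (−0.34, SE 0.17, adjusted p = 0.0909). The P7 groups did not overlap but the difference missed the threshold, and it passed without P7 WT replicate 3 (−0.45, adjusted p = 0.0391). Kif13a, which carries endosomal cargo to the cell surface, measured 370, 343 and 358 in P14 WT and 404, 437 and 440 in P14 Tbpl2-/- (0.28, SE 0.15, adjusted p = 0.135). At P7 it measured 440, 390 and 448 in WT and 400, 542 and 587 in Tbpl2-/- (0.28, adjusted p = 0.133). On the scale of library size alone Kif5b (0.51, adjusted p = 0.0169), Kif13a (0.69, adjusted p = 0.0011) and Kif3a (0.50, adjusted p = 4.9e-04) were called higher at P14. Of the remaining transport kinesins Kif21b rose at P7 (0.82, SE 0.26, adjusted p = 0.0130) but not without P7 WT replicate 3 (0.0596), Kif13b, Kif1c and Kifc2 were not called in either genotype comparison in the fit used here, and the neuronal motors Kif1a and Kif5a were barely present, at 6.3 to 22.1 and 1.1 to 15.8 normalised counts. Kif1c (1.04, adjusted p = 0.0195), Kifc2 (0.86, adjusted p = 0.00877) and Kif21b (1.00, adjusted p = 0.00406) were called higher at P14 with library size alone. Without the 3 libraries of under 4 ng RNA, Kif21b was called higher at P14 (0.68, adjusted p = 0.0376) and Kif13a at P7 (0.42, adjusted p = 0.0308), and Kifc2 was called lower at P7 (−0.51, adjusted p = 0.0497).

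**Figure D3:**
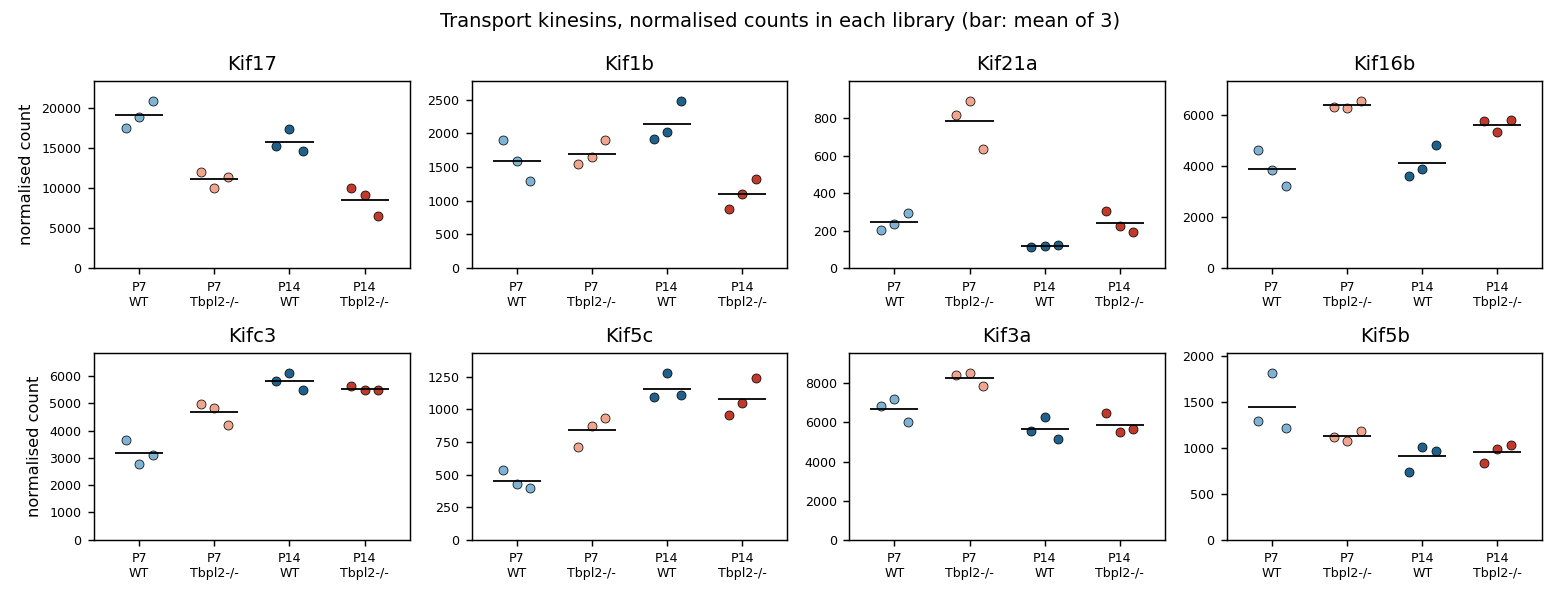
Normalised counts (y axis, from 0) of 8 transport kinesins in each of the 12 libraries, by group (x axis), with a bar at the mean of 3 libraries. Kif17 was lower and Kif21a and Kif16b were higher in Tbpl2-/- at both ages, Kif1b was lower at P14, and Kifc3 and Kif5c were higher at P7. With library size alone Kifc3 was also called higher at P14.

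Among the 6 cilium kinesins, Kif19a, Kif6 and Kif7 were at very low counts, and the calls on them rest on few reads. Kif19a, which shortens microtubules at the tips of cilia, was at 1.1, 5.7 and 0 in P14 WT and 13.4, 13.9 and 19 in P14 Tbpl2-/- (2.77, SE 0.68, adjusted p = 0.00264). Kif6, a kinesin of motile cilia and sperm tails, was at 2.1, 4.6 and 1.0 in P14 WT and 11.5, 18.7 and 13.8 in P14 Tbpl2-/- (2.51, SE 0.60, adjusted p = 0.00201). At P7 Kif6 was at 6.0, 7.1 and 2.0 in WT and 17.2, 12.7 and 12.6 in Tbpl2-/- (1.48, SE 0.54, adjusted p = 0.0271), a call that DESeq2 did not make (0.0690) and that was lost without the libraries of under 4 ng RNA (0.0971). The P14 rises of Kif19a and Kif6 were the largest of any kinesin, and neither gene had more than 27 reads in a library. Kif7, the motor of Hedgehog signalling at the cilium tip, fell at P7 from 16.1, 24.5 and 38.8 in WT to 4.0, 9.5 and 3.2 in Tbpl2-/- (−2.21, SE 0.52, adjusted p = 0.00174). At P14 it was at 5.4, 8.0 and 6.2 in WT and 2.9, 1.4 and 1.7 in Tbpl2-/- (−1.67, SE 0.67, adjusted p = 0.0442), and that call was lost in 9 of the 12 fits that left out 1 library, with an adjusted p of up to 0.148 without P14 Tbpl2-/- replicate 2, and without the libraries of under 4 ng RNA (0.124). Kif27, its paralogue, turned from higher at P7 to lower at P14, with P7 values of 324, 199 and 173 (WT) and 341, 346 and 355 (Tbpl2-/-) and P14 values of 243, 324 and 290 (WT) and 227, 159 and 163 (Tbpl2-/-). Its P7 rise (0.60, SE 0.22, adjusted p = 0.0287) and its P14 fall (−0.63, SE 0.22, adjusted p = 0.0248) were each lost when single libraries were left out, with an adjusted p of up to 0.123 without P7 WT replicate 3 for the first and of up to 0.122 without P14 Tbpl2-/- replicate 2 for the second, and the P14 fall was also lost with library size alone (−0.21, adjusted p = 0.412). Kif9, of motile cilia and sperm, lay between 595 and 781 in P7 WT and rose to between 1109 and 1356 in P7 Tbpl2-/- (0.87, SE 0.13, adjusted p = 4.81e-05). Kif24, which acts in the disassembly of cilia, was not called at either stage in the fit used here but was lower at P14 without the libraries of under 4 ng RNA (−0.70, adjusted p = 0.00446).

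Of the other kinesins, the atypical Kif26b, whose motor domain lacks ATPase activity, fell at both stages. It measured 457, 300 and 606 in P14 WT and 133, 182 and 166 in P14 Tbpl2-/- (−1.48, SE 0.24, adjusted p = 6.45e-05). At P7 Kif26b was at 493, 415 and 375 in WT and 118, 144 and 166 in Tbpl2-/- (−1.56, SE 0.24, adjusted p = 4.12e-05). Its paralogue Kif26a was lower in the mutant at P7, with 46.2, 46.0 and 52.1 in WT and 6.1, 12.7 and 7.4 in Tbpl2-/- (−2.43, SE 0.69, adjusted p = 0.00783). At P14 the Kif26a values were spread, at 33.3, 4.6 and 33.2 in WT and 11.5, 46.5 and 79.6 in Tbpl2-/- (0.97, SE 0.61, adjusted p = 0.192), and the low value of each group came from the library of under 4 ng RNA. Without those libraries Kif26a was 0.96 higher (adjusted p = 0.0498). Kif28, at 2.0 to 21.1 in all libraries, was not called.

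Summed over each class on the scale of the deposited normalised counts, the spindle kinesins differed with genotype at both stages. On that scale the transport sum was lower in Tbpl2-/- at both stages by less, a direction that depended on the scale and on Kif17. The 15 spindle kinesins summed to 116681 ± 11756 normalised counts in P14 WT (mean ± SD, n = 3) and 59938 ± 1119 in P14 Tbpl2-/-. At P7 the spindle sum was 83509 ± 12621 in WT and 61041 ± 5915 in Tbpl2-/-. The 17 transport kinesins summed to 39262 ± 1687 in P14 WT, 32934 ± 474 in P14 Tbpl2-/-, 39573 ± 405 in P7 WT and 38250 ± 457 in P7 Tbpl2-/-. Mean counts of Kif17 fell from 15752 to 8561 at P14 and from 19088 to 11130 at P7, by more than the transport sum. Relative to the total counts of the library, transport kinesins were higher in every Tbpl2-/- library than in any WT library of the same age. Spindle kinesins on that scale stayed lower at P14 without overlap, and their P7 ranges overlapped. The spindle share of all kinesin counts, which no scaling of the library can change, was 71.2 to 74.8% in P14 WT, 62.6 to 63.6% in P14 Tbpl2-/-, 62.9 to 69.2% in P7 WT and 57.2 to 61.8% in P7 Tbpl2-/-. The ranges of the genotypes did not overlap at either stage. The 4 genes most counted (Kif4, Kif23, Kif22 and Kif2c) made up 73.1% of the spindle sum in P14 WT, and those of the transport class (Kif17, Kif3a, Kifc3 and Kif16b) made up 79.7% of the transport sum.

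**Figure D4:**
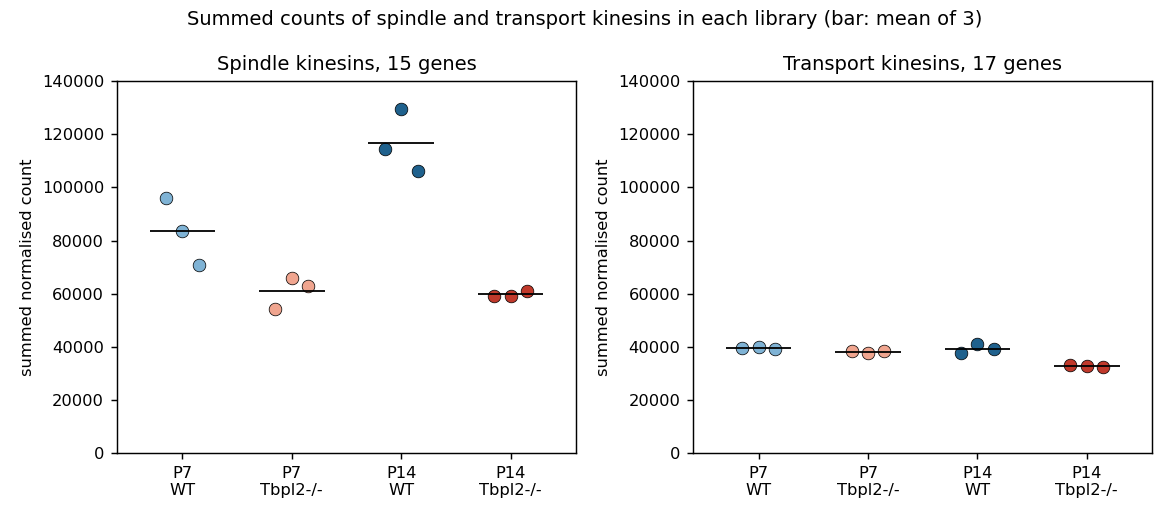
Summed normalised counts (y axis, from 0) of the 15 spindle and the 17 transport kinesins in each library, by group (x axis), with a bar at the mean of 3 libraries. The spindle sum was 106137 to 129357 in P14 WT and 59271 to 61230 in P14 Tbpl2-/-, and the transport sum ran from 32414 to 40995 over all libraries.

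To compare kinesins with each other, normalised counts were divided by transcript length. The deposited median transcript length was short for many members, 701.5 bases for Kif23 against 3398 for its longest annotated transcript and 709 against 4983 for Kif4, so both lengths were used. Per kb of the longest transcript, the highest kinesins of P14 WT were Kif22 (8366 ± 1239, mean ± SD, n = 3), Kif23 (6901 ± 302), Kif2c (5988 ± 1057), Kif4 (5445 ± 637) and Kif17 (4562 ± 411). No 2 neighbours in this order from Kif22 to Kif17 differed by more than the sum of their SDs. The next was Kif20a at 2225 ± 292, followed by Kif3a at 1788 ± 184 and Kifc3 at 1714 ± 93.9. In P14 Tbpl2-/- the order was Kif22 (5125 ± 587), Kif4 (3192 ± 59.5), Kif2c (2918 ± 133) and Kif17 (2479 ± 535), and Kif23 stood at 1711 ± 232, below Kif3a (1859 ± 170). Per kb of the median length the first 4 in P14 WT were Kif4, Kif23, Kif22 and Kif2c, so the same 4 genes led with either length but not in the same order. The median level of the spindle kinesins in P14 WT was 1012 per kb of the longest and 1825 per kb of the median length, and that of the transport kinesins 105.5 and 505.

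From P7 to P14 in WT, 7 of 14 spindle kinesins rose, 2 fell and 5 did not pass (median 0.42), against 26.8% called higher, 23.4% called lower and a median of 0.03 over all genes. Over all kinesins 7 fell and 10 rose, or 11 and 9 with library size alone. The risers were Kif18a (0.96, SE 0.19, adjusted p = 6.20e-04), Kif20a (0.89, SE 0.14, adjusted p = 1.54e-04), Kif11 (0.80), Kif2c (0.69), Kif22 (0.56), Kif18b (0.51) and Kif23 (0.45), none of them by 2-fold. Kif2a (−0.78, SE 0.16, adjusted p = 0.00103) and Kifc5b (−0.88, SE 0.25, adjusted p = 0.00824) fell. Among transport kinesins 3 rose and 3 fell. Kif5c rose from a mean of 452 to 1160 (1.36, SE 0.16, adjusted p = 1.3e-05), and Kifc3 and Kif3c (0.88 and 0.78) also rose. Kifc2, a minus-end directed kinesin of neuronal dendrites, fell from 560, 622 and 391 to 155, 111 and 159 (−1.88, SE 0.25, adjusted p = 2.8e-05), as did Kif21a (−1.04) and Kif5b (−0.67). Of the cilium kinesins Kif19a (−2.05) and Kif7 (adjusted p = 0.00436) fell from already low counts, and the calls of Kif19a and Kif3c were lost when single libraries were left out (adjusted p of up to 0.105 for Kif19a without P14 WT replicate 1 and 0.116 for Kif3c without P7 WT replicate 2). Without the libraries of under 4 ng RNA Kif3c was not called (adjusted p = 0.0841), Kif3b (0.80), Kif13b (0.77) and Kif24 (0.56) rose, and Kifc1 (−0.66), Kif17 (−0.38) and Kif3a (−0.35) fell.

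In Tbpl2-/- oocytes the same interval brought fewer spindle changes. Only Kif20b (0.52, SE 0.11, adjusted p = 0.00223) and Kif14 (0.56, SE 0.13, adjusted p = 0.00405) rose and Kif15 fell (−0.68, SE 0.19, adjusted p = 0.0118) of 14 spindle kinesins, where over all genes 18.4% were called higher and 15.3% lower. No transport kinesin rose in Tbpl2-/- in the fit used here, and Kif21a (−1.70, SE 0.19, adjusted p = 1.2e-05), Kifc2 (−1.20), Kif1b (−0.62) and Kif3a (−0.49) fell. Of the others, Kif26a rose (2.40, SE 0.69, adjusted p = 0.0158) with overlapping groups, Kifc5c-ps rose (0.61, adjusted p = 0.0415), and Kif27 (−0.92) and Kif9 (−0.51) fell. Without the libraries of under 4 ng RNA Kif13b (0.70, adjusted p = 0.00767) and Kif3b (0.69, adjusted p = 0.0296) rose, Kif17 (−0.45, adjusted p = 0.0435) and Kif4 (−0.53, adjusted p = 0.0323) fell, and Kifc5c-ps was not called (adjusted p = 0.0955). Without P14 Tbpl2-/- replicate 1 alone Kif3b (0.90, adjusted p = 0.0111) and Kif5c (0.45, adjusted p = 0.0430) rose. Over all 41 kinesins 7 fell and 4 rose, and the number that rose was 2 without P7 Tbpl2-/- replicate 1, P7 Tbpl2-/- replicate 3 or P14 Tbpl2-/- replicate 3 and 8 without P14 Tbpl2-/- replicate 1. The calls of Kif15, Kif1b, Kif26a and Kifc5c-ps were lost when single libraries were left out, with an adjusted p of up to 0.141 for Kifc5c-ps without P7 Tbpl2-/- replicate 1.

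The difference between the stage changes of the genotypes, which is also the difference of the genotype change at P14 from that at P7, passed for 12 of 41 kinesins, 9 more negative and 3 more positive at P14, against 14.3% and 13.6% of all genes. Among spindle kinesins the difference was negative for 4, none of which was called between the stages in Tbpl2-/- in the fit used here (Kif4 fell there with library size alone, −0.42, adjusted p = 0.0332): Kif20a (−0.82, SE 0.20, adjusted p = 0.00899), Kif4 (−0.79, SE 0.23, adjusted p = 0.0183), Kif2c (−0.61, SE 0.18, adjusted p = 0.0221) and Kif22 (−0.56, SE 0.17, adjusted p = 0.0231). Kif14 (0.56) and Kif20b (0.49) had positive ones. Among transport kinesins the difference was negative for Kif1b (−1.05), Kif5c (−0.99, SE 0.22, adjusted p = 0.00534) and Kifc3 (−0.62), in the cilium class for Kif27 (−1.22) and Kif9 (−0.70), and it was positive for Kif26a (3.40, SE 0.93, adjusted p = 0.0159). The differences of Kif14 and Kif22 were each lost in 8 of the 12 fits that left out 1 library, and that of Kif2c in 7. Those of Kif20b, Kif4 and Kif9 were lost in 4, 3 and 1 of these fits. The adjusted p was up to 0.101 for Kif14 without P14 WT replicate 1. The number of negative differences was 5 without P7 Tbpl2-/- replicate 2, and 1 positive difference was left without P7 WT replicate 2 or P14 WT replicate 1. Without the 3 libraries of under 4 ng RNA the differences of Kif2c (adjusted p = 0.0654) and Kifc3 (0.0661) did not pass, and that of Kif19a did (3.66, adjusted p = 0.0418).

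**Figure D5:**
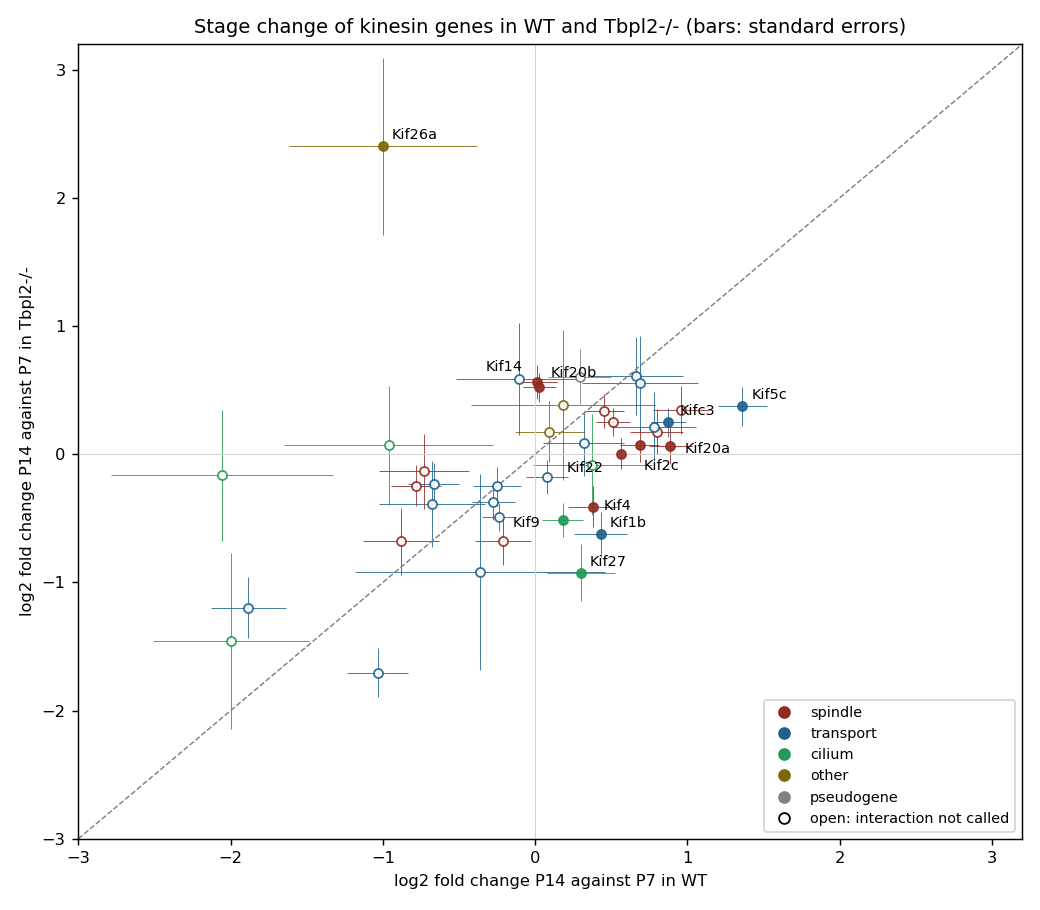
log2 fold change from P7 to P14 in WT (x axis) and in Tbpl2-/- (y axis) with standard errors for the 41 tested kinesins, filled and named where the 2 changes differed (adjusted p of at most 0.05), with a dashed line of equal change. Kif20a, Kif2c, Kif22 and Kif5c lay right of the line, with WT changes of 0.89, 0.69, 0.56 and 1.36, and Kif26a, Kif14 and Kif20b lay above it.

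Genes that work with kinesins were read from 4 lists. Of 16 partners of spindle motors, 11 fell, 1 rose and 4 did not pass at P14 (6 fell and 2 rose with library size alone), where 27.8% of all genes fell and 29.9% rose, led by Tacc3 (−1.63, SE 0.12), a spindle microtubule protein, Nusap1 (−1.49, SE 0.09), which bundles microtubules near chromosomes, and Ckap5 (−1.39, SE 0.18), a microtubule polymerase. The riser was Birc5 (0.47, SE 0.12, adjusted p = 0.0043), the survivin subunit of the chromosomal passenger complex. Racgap1, the other subunit of centralspindlin, was looked up after its values were seen: beside the fall of Kif23, its mean was 4689 in P14 WT and 4082 in P14 Tbpl2-/- (−0.18, adjusted p = 0.219). The kinetochore kinesin Cenpe, whose symbol the name rule does not catch, fell at both stages (P14 −0.89, SE 0.10; P7 −0.99), and the giant kinesin Stard9 rose at P7, from a mean of 63.0 to 134 (adjusted p = 0.0264), but was not called at P14 (0.66, adjusted p = 0.194).

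Adaptors and light chains of transport kinesins were the next list. Of 13 listed, 8 rose and 2 fell at P14 (29.9% and 27.8% of all genes) and 9 rose at P7 (30.5% of all genes), with medians of 0.58 and 0.46. Kifap3, the adaptor of Kif3a and Kif3b, rose at both stages, from a mean of 633 to 1329 at P14 (1.09, SE 0.15) and from 933 to 3491 at P7 (1.92). Klc3, a kinesin-1 light chain of male germ cells, rose from 525 to 1277 at P14 (1.30, SE 0.15), and the scaffold Mapk8ip1 from 6.75 to 40.5 (2.57, SE 0.68, adjusted p = 0.0046). Trak2 and Trak1, which link mitochondria to kinesin-1, fell at P14 (−0.60 and −0.50), and with library size alone no member of the list was called lower. Cytoplasmic dynein and dynactin, the minus-end directed transport machine, had 8 of 21 members higher and 3 lower at P14 (17 and 2 with library size alone), where 29.9% of all genes were called higher. Its largest changes were a rise of the intermediate chain Dync1i1 from a mean of 156 to 330.1 and falls of Nde1 (−1.61, SE 0.16), a dynein regulator, and of Dync1i2 (−1.04, SE 0.11), the other intermediate chain.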

How the data were processed

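Polyadenylated RNA of pooled oocytes was measured in 12 libraries, 3 for each of the 4 groups named by the labels. Per the study's methods, the authors amplified it with the SMART-Seq v4 kit, made Nextera XT libraries, sequenced single reads of 50 bases, trimmed them with cutadapt 1.10 (reads under 40 bases dropped), removed spike sequences with bowtie 2.2.8, aligned to mm10 with STAR 2.7.0f and counted reads with htseq-count 0.9.1 in union mode on Ensembl 96. The strand setting of the counting is not given in the sources used here. The deposited table holds raw read counts per gene and library, the same counts divided by the authors' DESeq2 1.22.2 size factors (a signal, printed as normalised counts and never tested), and a median transcript length per gene. The remaining 28 columns, which hold group means, per-kb values and the authors' own comparisons (fold changes and p-values), were not used.

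The counts were fitted with edgeR 4.0.16 in R 4.3.3 (quasi-likelihood test, robust, TMM factors, filterByExpr), with 1 mean per group over all 12 libraries and 17715 genes, and p-values were adjusted after Benjamini and Hochberg. The SE of a log2 change is its size divided by the square root of F. All kinesins were accounted for, with values per library for a set list of spindle and transport motors, for the called members with the largest changes (up to 5 in each direction at P14, 3 at P7 and between stages, 4 for the difference) and for the 3 highest per kb in each class. Of other lists up to 3 called genes in each direction at P14 were named, and Cenpe and Stard9 always. Values per library of further members were added after they were seen. The members, classes and lists were chosen with earlier results of these data known. The test was run on simulated P14 counts with 200 of 17116 genes changed, at a median log2 size of 2.00. It recovered 192 of them and made 13 false calls. In the real P14 contrast 10224 of 17715 genes were called, so this check does not cover scaling under such broad change or smaller effects. Alternatives were library size alone, RLE factors, DESeq2 1.42.0, no filter, a mean of at least 100, a replicate block, single libraries left out, each stage alone and, added after the data were seen, no libraries of under 4 ng RNA. Totals of 31467610 to 48030724 counts per library set the precision, and counts without molecular identifiers understate amplification error. Promoters and transcripts came from RefSeq and the GRCm38 annotation. One overlap between a kinesin and a neighbouring gene is not reported here.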

Additional observations from a re-analysis of the deposited data

Results flagged for a closer look

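The genotype change at P14 differed from that at P7 for 12 kinesins by the test of the difference itself (edgeR's quasi-likelihood test, adjusted over all genes tested). Of 41 tested kinesins 9 were more negative and 3 more positive at P14, where 14.3% and 13.6% of all genes were. Each difference is given as the log2 change at P14 minus that at P7. Among spindle kinesins the difference was −0.82 for Kif20a, −0.79 for Kif4, −0.61 for Kif2c and −0.56 for Kif22, and 0.56 for Kif14 and 0.49 for Kif20b. For the transport kinesins Kif1b, Kif5c and Kifc3 it was −1.05, −0.99 and −0.62. Among the others it was −1.22 for Kif27, −0.70 for Kif9 and 3.40 for Kif26a, whose P14 values were spread within both genotypes. The differences of Kif14, Kif22 and Kif2c were lost in 8, 8 and 7 of the 12 fits that left out 1 library.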

How the results depend on the processing

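The P14 fall of the spindle kinesins kept its count within 1.5 times under every alternative run, with 9 to 10 lower as single libraries were left out and 8 lower with library size alone. Counts of kinesins called higher depended on the scale. With library size alone 17 in place of 5 kinesins were called higher at P14, 4 in place of 1 spindle kinesin and 10 in place of 2 transport kinesins, while at P7 4 in place of 7 spindle kinesins were called lower and in WT 11 in place of 7 kinesins fell from P7 to P14. This scaling also turned Kifc3 at P14 to a called rise (0.37, adjusted p = 0.00511). Without a filter the P14 counts called higher were 9 for all, 2 for spindle and 4 for transport kinesins, and without the libraries of under 4 ng RNA 9, 2 and 4. The stricter filter gave 2 spindle kinesins higher at P14 and 2 transport kinesins lower at P7, as did leaving out the libraries of under 4 ng RNA for the latter (2). The cause was not tested.

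With single libraries left out, the number called lower and higher was 13 to 16 and 4 to 10 at P14, 10 to 14 and 6 to 11 at P7, 6 to 9 and 9 to 13 for the stages in WT, 5 to 10 and 2 to 8 for the stages in Tbpl2-/-, and 5 to 11 and 1 to 4 for the difference. For spindle kinesins it was 9 to 10 and 1 to 2 at P14 and 5 to 8 and 1 to 1 at P7, and for transport kinesins 2 to 2 and 1 to 5 at P14 and 1 to 2 and 4 to 7 at P7. Replicate numbers did not pair the samples, with correlations of same-numbered deviations of −0.112 to 0.219 at P14 and −0.102 to 0.0293 at P7. Fits with the replicate number as a block gave 16 lower and 5 higher at P14, 12 and 10 at P7, 8 and 11 for the stages in WT, 7 and 3 in Tbpl2-/-, and 9 and 3 for the difference. The tested kinesins at under 40 counts in every library (Kif1a, Kif5a, Kif6, Kif7, Kif19a and Kif28) are limited by depth.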
